A study of Rattus norvegicus with 12 samples.

Results

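The shunt effect shared by the right and left atrium was measured over 12 of the 12 arrays of the series, 6 from right and 6 from left atrial appendages. For each probe set, a group of short probes directed at 1 transcript, the difference shunt minus sham was taken within the right atrium and within the left atrium, and the mean of both differences is called the averaged change here. All values are log2 expression values of 1-colour Affymetrix arrays, on which a difference of 1 is 2-fold. A gene was called where limma's test of the averaged change, a linear model with 1 mean per group, gave an adjusted p under 0.05 over the 31042 probe sets tested.

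Male Sprague-Dawley rats, an outbred laboratory stock, had lived for 28 days with an aorto-caval shunt or after a sham operation. Each atrium had a sham and a shunt group, 4 groups in all, with 3 arrays in each. All rats were otherwise of 1 stock and sex, and no age is given in the labels used here. Each array held RNA of a pool of 2 tissues, so an array is not a single animal and p-values measure the spread between pools.

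A shunt between aorta and vena cava lets arterial blood return straight to the heart, which then carries an overload of volume. Stretched atria enlarge, their cardiomyocytes take up contractile genes of the fetal heart, and fibroblasts deposit collagens and other matrix proteins that secreted enzymes trim and cross-link. Heart muscle takes most of its energy from fatty acids, which are taken up, activated with coenzyme A, carried into mitochondria and oxidised. Whole appendages were measured, so fewer cells of a type and less RNA per cell cannot be told apart in any of the results.

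Array medians lay between 5.44 and 5.47. Left atrium shunt replicate 3 stood somewhat apart, with a mean correlation of 0.989 with its group, against 0.992 and 0.993 for the other 2 left shunt arrays and 0.996 to 0.997 for the arrays of the other groups. The 10 measured markers of atrial cardiomyocytes had a mean level of 10.73 to 11.01 on every array, among them the atrial light chain gene Myl7 at 14.06 to 14.27, as the label of the tissue says. The labels' tissue entry names ventricles beside atria, and the ventricular light chain gene Myl2 read 10.90 to 11.00 in right sham and 5.02 to 5.45 in left sham arrays.

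With both atria joined, 1198 probe sets passed, which is 3.86% of those tested, 716 of them higher (2.31%) and 482 lower (1.55%) after the shunt. Of these, 91 also passed in each atrium, 501 in the right atrium but not the left, 102 in the left but not the right, and 504 in neither atrium alone. The 504 probe sets called only with both atria joined are 1.62% of those tested, 268 higher (0.863%) and 236 lower (0.76%), and in 351 of them the arrays of the operations did not overlap in either atrium, beside 3.98% of all probe sets. That count was 332 and 309 without left shunt replicates 1 and 2, 319 and 308 without left sham replicates 2 and 3, and 760 without left shunt replicate 3. With both atria joined, 6 arrays stood behind each mean in place of 3, and the median SE fell from 0.095 for the right atrium to 0.067 for the averaged change over 1 probe set per gene. That fall was fixed by the fit, which took 1 spread for all groups and treated right and left arrays as independent. The count of 1198 was 754 without right shunt replicate 1, 672 without right shunt replicate 2, 711 and 742 without right sham replicates 2 and 3, 787 without left shunt replicate 2, 779 and 717 without left sham replicates 2 and 3, and 2018 without left shunt replicate 3. Of the 1198 calls, 1153 were also called without left shunt replicate 3.

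Counted as genes, with 1 probe set each, 747 of 14217 were called (5.25%), 483 higher and 264 lower, and 302 of these (2.12%) were called only with both atria joined, 176 higher (1.24%) and 126 lower (0.886%). An averaged change need not be shared: 4 of the other 445 called genes had opposite signs in the atria, and in 181 of them the unadjusted p of the left minus right difference was under 0.05. Among the 302, both atria had the same sign in every gene, that unadjusted p was under 0.05 in 4, and in 277 the smaller of the 2 effects was at least 0.5 of the larger. A call on average without a call in either atrium favours effects of 1 sign and like size, so these counts describe how the genes were chosen and support nothing. The arrays of the operations did not overlap in either atrium in 215 of the 302 genes, 122 higher and 93 lower, against 793 of all 14217 genes (5.58%), and since both the call and the overlap were read on the same arrays, nothing is read from that excess.

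**Figure D1:**
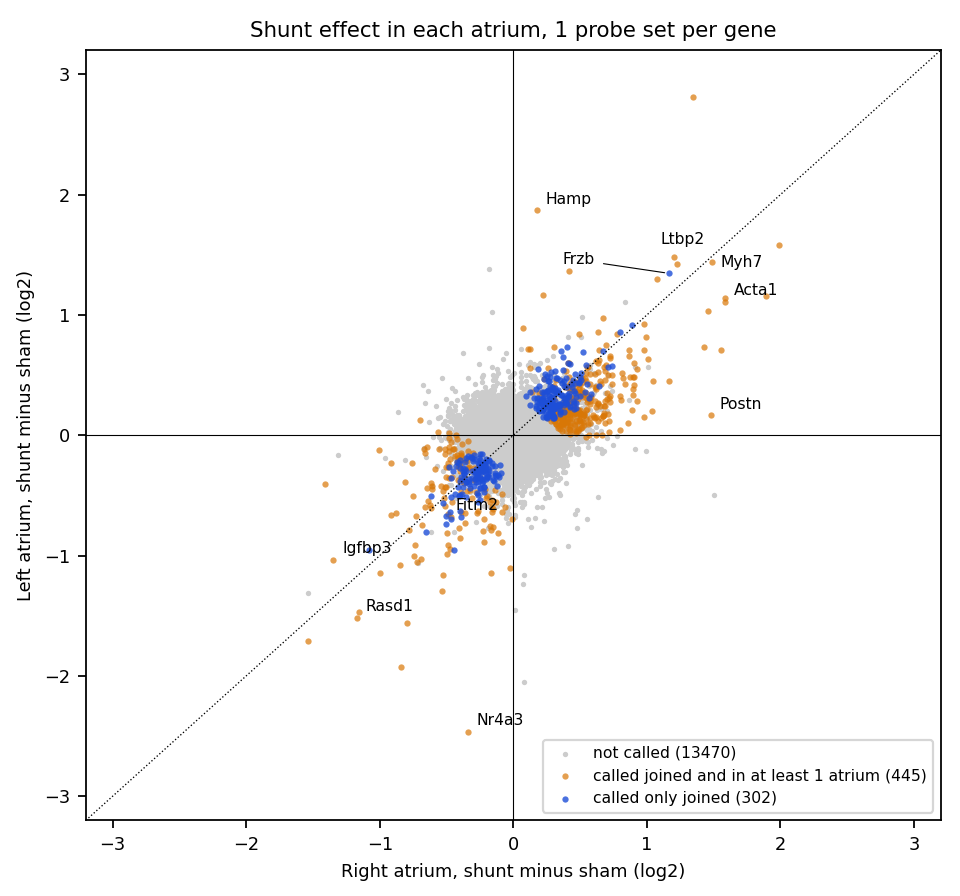
Shunt minus sham difference (log2) in the right atrium (horizontal axis) against that in the left atrium (vertical axis) for 14217 genes, 1 probe set each; the dotted line marks equal effects. The 302 genes called only with both atria joined (blue) lie close to the dotted line at small values, while Postn and Hamp, called in 1 atrium as well (orange), lie near an axis.

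The strictest reading of a shared effect asks for a change in each atrium by itself, tested with the larger of the 2 p-values. It was passed by 25 probe sets (0.0805% of those tested) and 17 genes (0.12%), 9 of them higher and 8 lower. Counts of this test were small and moved with single arrays, from 5 probe sets without left sham replicate 3 to 125 without left shunt replicate 3, and of the other exclusions the one without left sham replicate 2 (18) stayed within 1.5 times of 25. The genes of muscle structure come first here.

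Acta1, the skeletal muscle actin that fetal heart muscle also makes, read 9.86, 10.44 and 10.05 on the right sham arrays and 11.68, 11.68 and 11.76 on the right shunt arrays. In the left atrium it read 10.34, 10.39 and 10.03 after sham and 11.24, 11.28 and 11.57 after the shunt. All 6 shunt arrays lay above all 6 sham arrays, and the averaged change was 1.35 ± 0.10 (SE, n = 6 shunt and 6 sham arrays, adjusted p = 3.5e-05, both-atria adjusted p = 0.0128). Fbxl22, an F-box protein of the cardiac sarcomere, read 10.00, 10.24 and 10.34 in right sham against 10.76, 10.95 and 10.78 in right shunt, and 10.02, 10.07 and 9.87 in left sham against 10.60, 10.79 and 10.69 in left shunt. The 2 atria moved by nearly the same amount, 0.64 ± 0.10 in the right and 0.71 ± 0.10 in the left (both-atria adjusted p = 0.0422). Myh7, the slow myosin heavy chain, rose by 1.48 ± 0.22 in the right and 1.44 ± 0.22 in the left atrium.

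The promoter of Acta1 is shown because it carries a CArG box, the site bound by serum response factor, a regulator of actin genes, and that of Cnn2, a calponin of the actin cytoskeleton described below, because it carries one too. Both were chosen after the matches were seen. Each run gives the 250 bases before the gene's start in RefSeq (build GRCr8), 5′ to 3′ on the gene's strand, with the CArG box in capitals; Acta1 lies at chr19:68784195-68784444 and Cnn2 at chr7:10370313-10370562, both on the minus strand.
Acta1: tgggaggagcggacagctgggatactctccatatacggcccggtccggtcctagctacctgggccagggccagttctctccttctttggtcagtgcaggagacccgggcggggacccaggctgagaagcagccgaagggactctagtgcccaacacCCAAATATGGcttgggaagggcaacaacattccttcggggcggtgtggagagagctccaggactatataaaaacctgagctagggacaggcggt
Cnn2: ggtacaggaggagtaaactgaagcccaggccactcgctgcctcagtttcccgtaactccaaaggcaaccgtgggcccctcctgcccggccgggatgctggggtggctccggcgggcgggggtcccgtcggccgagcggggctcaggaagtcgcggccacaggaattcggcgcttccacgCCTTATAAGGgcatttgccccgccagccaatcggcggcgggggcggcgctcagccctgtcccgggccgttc
The box begins 94 bases before the start of Acta1 and 71 bases before that of Cnn2. A CArG box on either strand was found in 1.6% of 375 promoters of genes called higher, 1.44% of 208 of genes called lower and 1.35% of all 11700 promoters of genes tested, over 250 bases before to 50 after the start. A match is a description of these letters, not a site in use.

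Among secreted and matrix genes, Ccn2, a matricellular protein long used as a marker of fibrosis, read 10.36, 10.54 and 10.27 in right sham and 11.60, 11.39 and 11.12 in right shunt. Its left sham arrays read 10.79, 10.49 and 10.35 and its left shunt arrays 11.58, 11.44 and 11.38. The groups did not overlap in either atrium, and the averaged change was 0.95 ± 0.09 (adjusted p = 0.000203, both-atria adjusted p = 0.0292). Ltbp2, a protein of elastic fibres, rose by 1.34 ± 0.13 (both-atria adjusted p = 0.0422). Ccdc3, which encodes a secreted coiled-coil protein, read 6.43 to 6.65 on all 6 sham arrays and 6.94 to 7.32 on all 6 shunt arrays, and rose by 0.62 ± 0.07 (both-atria adjusted p = 0.0422). A further Ccdc3 probe set was at 0.28, not called.

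Ccn2 is a textbook target of the stretch-sensitive Yap and Tead factors, as is Ajuba, a LIM protein at cell junctions that was called only with both atria joined. Their promoters are shown, again chosen after the matches were seen, with the Tead motif CATTCC, which reads GGAATG when it lies on the other strand, in capitals; both are given as the 250 bases before the start on the minus strand of GRCr8, Ccn2 at chr1:22624615-22624864 and Ajuba at chr15:32000043-32000292.
Ccn2: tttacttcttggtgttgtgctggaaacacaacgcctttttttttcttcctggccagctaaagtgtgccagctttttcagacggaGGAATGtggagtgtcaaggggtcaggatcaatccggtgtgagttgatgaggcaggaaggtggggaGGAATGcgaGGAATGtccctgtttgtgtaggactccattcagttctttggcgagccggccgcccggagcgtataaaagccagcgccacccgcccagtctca
Ajuba: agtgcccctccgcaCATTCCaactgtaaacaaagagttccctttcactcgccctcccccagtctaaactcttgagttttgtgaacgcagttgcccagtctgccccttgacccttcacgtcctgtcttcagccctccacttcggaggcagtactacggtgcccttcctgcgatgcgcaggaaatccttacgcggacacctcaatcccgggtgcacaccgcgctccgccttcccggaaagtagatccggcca
Ccn2 held 3 matches, beginning 166, 101 and 92 bases before the start, and Ajuba held 1 at 236 bases. The motif was found in 13.9% of promoters of genes called higher, 12.5% of those called lower and 11.7% of all. Of the other motifs searched on both strands, the E-box CACGTG was in 9.87% of promoters of higher, 3.37% of lower and 8.94% of all genes, and the AP-1 motif TGACTCA in 4.8%, 6.25% and 3.79%. The CRE motif TGACGTCA was in 3.2%, 1.44% and 2.85%, and the NF-Y motif CCAAT in 35.2%, 33.7% and 37.3%.

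Other genes past the both-atria test act in signalling, transport and metabolism. Lpin1, which encodes a phosphatidate phosphatase of lipid synthesis that also acts as a nuclear coactivator of fatty acid oxidation genes, read 9.77, 9.44 and 9.67 in right sham and 8.98, 8.91 and 8.94 in right shunt. In the left atrium it read 9.70, 9.49 and 9.81 after sham and 8.92, 8.85 and 8.97 after the shunt. No shunt array reached any sham array, and it fell by 0.71 ± 0.07 (adjusted p = 0.000186, both-atria adjusted p = 0.0292), a change of -39.1% on the linear scale; another probe set of the gene was at -0.75.

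Lynx1, a membrane-bound modulator of nicotinic acetylcholine receptors, fell by 0.55 ± 0.06 (both-atria adjusted p = 0.0422). Slc22a3, an organic cation transporter that also clears catecholamines, read 7.77, 7.72 and 7.70 in right sham against 6.70, 7.04 and 7.11 in right shunt, and 6.97, 7.32 and 7.33 in left sham against 6.34, 6.31 and 6.60 in left shunt. It fell by 0.78 ± 0.12 in the right and 0.79 ± 0.12 in the left atrium, the same size within the error (both-atria adjusted p = 0.0422). Cpeb1, which binds mRNAs and controls their translation, rose by 0.53 ± 0.06 (both-atria adjusted p = 0.0422). The predicted gene LOC102553868 rose by 1.19 ± 0.09 (both-atria adjusted p = 0.00664). The smallest both-atria adjusted p, 0.00281, was that of Igfbp3, whose protein carries growth factors of the insulin family in blood; it fell by 1.19 ± 0.07.

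The 302 genes called only with both atria joined are mostly small changes. Their absolute averaged change ran from 0.17 to 1.26 with a median of 0.30; 76 were under 0.25, 276 under 0.5 and 2 at least 1. In the other 445 called genes the median was 0.38 and 21 were at least 1. The calls are close to the threshold: leaving out each of the 12 arrays in turn, 63 of the 302 passed every time, 35 failed in 1 to 6 exclusions and 204 in more than 6, against 286, 54 and 105 of the other 445. The sign of the averaged change stayed the same in all 747 genes under all 12 exclusions. Genes called on these same arrays lie far from 0 for their error, so that outcome was nearly fixed in advance and nothing is read from it. Of the 63 genes that passed every time, 27 were higher and 36 lower, and 57 had arrays that did not overlap in either atrium. Left shunt replicate 3 lay nearest to sham among the 3 left shunt arrays in 171 of the 302 genes (56.6%), against 66 (21.9%) for replicate 1 and 65 (21.5%) for replicate 2.

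**Figure D2:**
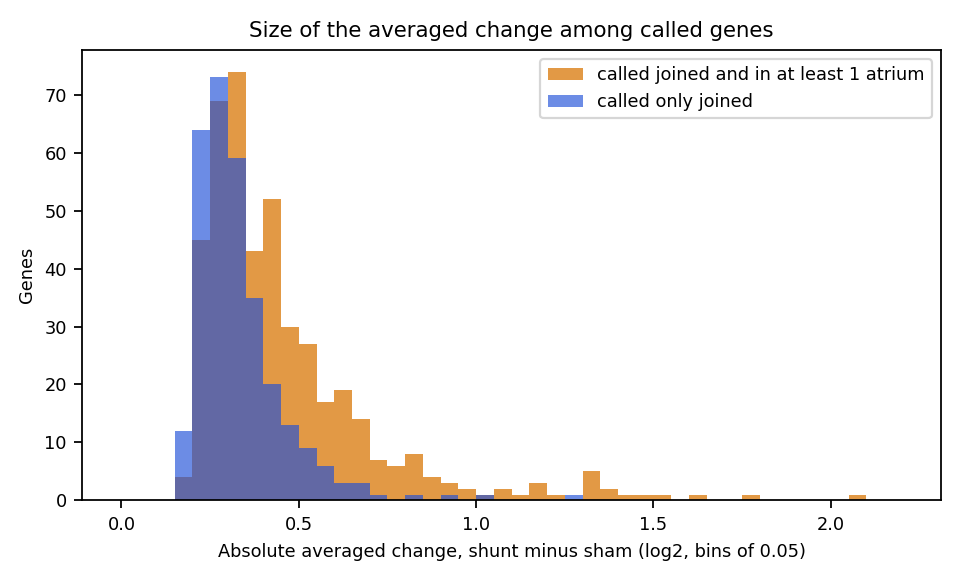
Number of genes (vertical axis) by absolute averaged change (horizontal axis, log2, bins of 0.05) among the 302 genes called only with both atria joined (blue) and the 445 called joined and in at least 1 atrium (orange); the bars overlap. The blue bars end at 1.26 with a median of 0.30, and the orange bars, with a median of 0.38, reach further right.

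Genes whose arrays did not overlap in either atrium are described first. Frzb, a secreted antagonist of Wnt ligands, had the largest change of all 302 genes. It read 6.23, 6.39 and 5.85 in right sham and 7.64, 7.18 and 7.15 in right shunt, and 6.99, 6.36 and 6.33 in left sham against 8.55, 8.16 and 6.99 in left shunt. In the left atrium the lowest shunt array, replicate 3, and the highest sham array lay next to each other without overlap. It rose by 1.26 ± 0.23 (adjusted p = 0.00958), with 1.17 ± 0.32 in the right (adjusted p = 0.0717) and 1.35 ± 0.32 in the left atrium (adjusted p = 0.0845), and a further probe set of Frzb was at 1.07.

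Pfas, an enzyme of purine synthesis, read 7.08, 7.46 and 6.86 in right sham against 7.69, 7.78 and 7.49 in right shunt, and 6.67, 6.94 and 6.36 in left sham against 7.47, 7.16 and 7.41 in left shunt. It rose by 0.60 ± 0.12 (adjusted p = 0.0131). Bgn, the small matrix proteoglycan biglycan, read 9.33, 9.54 and 9.56 in right sham against 10.31, 9.85 and 9.88 in right shunt, and 10.11, 10.17 and 10.09 in left sham against 10.94, 10.87 and 10.32 in left shunt. It rose by 0.56 ± 0.11 (adjusted p = 0.0148), and no array of one operation reached the other within an atrium.

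Mtus2, a microtubule-associated protein, rose by 0.69 ± 0.14 and a further probe set of it by 0.46. Cnp, the cyclic nucleotide phosphodiesterase best known from myelin, rose by 0.49 ± 0.08 with a further probe set at 0.40. Ifi27, an interferon-inducible gene, rose by 0.47 ± 0.09, and the predicted gene LOC103691468 by 0.83 ± 0.16. These 4 and Frzb, Pfas and Bgn passed under every single-array exclusion. The other 5 of the 12 largest rises without overlap did not: P2ry1, an ADP receptor (0.52), and Rasl12 (0.49) failed in 8 of 12 exclusions, Evi2a (0.51) and Fxyd5, a regulator of the sodium pump (0.48), in 7, and the transcription factor gene Mycn (0.51) in 6, with adjusted p-values of at most 0.103. None of these 5 passed without right shunt replicate 2, right sham replicate 2 or left shunt replicate 2.

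The 12 largest falls among genes called only with both atria joined whose arrays did not overlap in either atrium included a co-chaperone, lipid droplet genes and muscle genes. Dnajb6, a co-chaperone that guards against protein aggregates and in which inherited changes cause muscle disease, read 8.70, 8.56 and 8.27 in right sham against 8.10, 7.70 and 7.77 in right shunt, and 8.55, 8.67 and 8.24 in left sham against 8.16, 7.43 and 7.46 in left shunt. Within each atrium all shunt arrays lay below all sham arrays, replicate 1 of each shunt group nearest to them. It fell by 0.73 ± 0.14 (adjusted p = 0.0108).

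Tmod4, a tropomodulin that caps actin filaments in striated muscle, read 8.02, 7.73 and 7.75 in right sham against 7.42, 7.40 and 7.48 in right shunt, and 8.53, 8.20 and 8.47 in left sham against 7.61, 7.61 and 8.09 in left shunt. It fell by 0.51 ± 0.09 (adjusted p = 0.0105). Zc3h6, a zinc finger gene, had the smallest adjusted p of these 12 (0.0066): it fell by 0.49 ± 0.08, by 0.47 in the right and 0.51 in the left atrium. Sphkap, an anchor of protein kinase A, fell by 0.45 ± 0.08 with a further probe set at -0.30. Abcb9, a lysosomal peptide transporter, fell by 0.62 ± 0.12, and Tppp3, a tubulin-binding protein, by 0.44 ± 0.08. These 6 genes, Fitm1, Fitm2 and Slc6a17 passed under every exclusion. Slc4a3, the chloride and bicarbonate exchanger of heart muscle (-0.44), failed without right shunt replicate 2 and without right sham replicate 2, with adjusted p-values of at most 0.0517. Rps6ka5, a nuclear kinase downstream of MAP kinases (-0.54), and Wfdc21 (-0.45) each failed in 7 of 12, with adjusted p-values of at most 0.0733, and shared the failures without right shunt replicates 1, 2 and 3 and left sham replicate 3. Another Rps6ka5 probe set was called at -0.25, with -0.04 in the right and -0.47 in the left atrium, so it does not bear out a change in both. Slc6a17, a vesicular amino acid transporter, fell by 0.46 ± 0.09, and its other probe sets ran from -0.37 to 0.03.

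**Figure D3:**
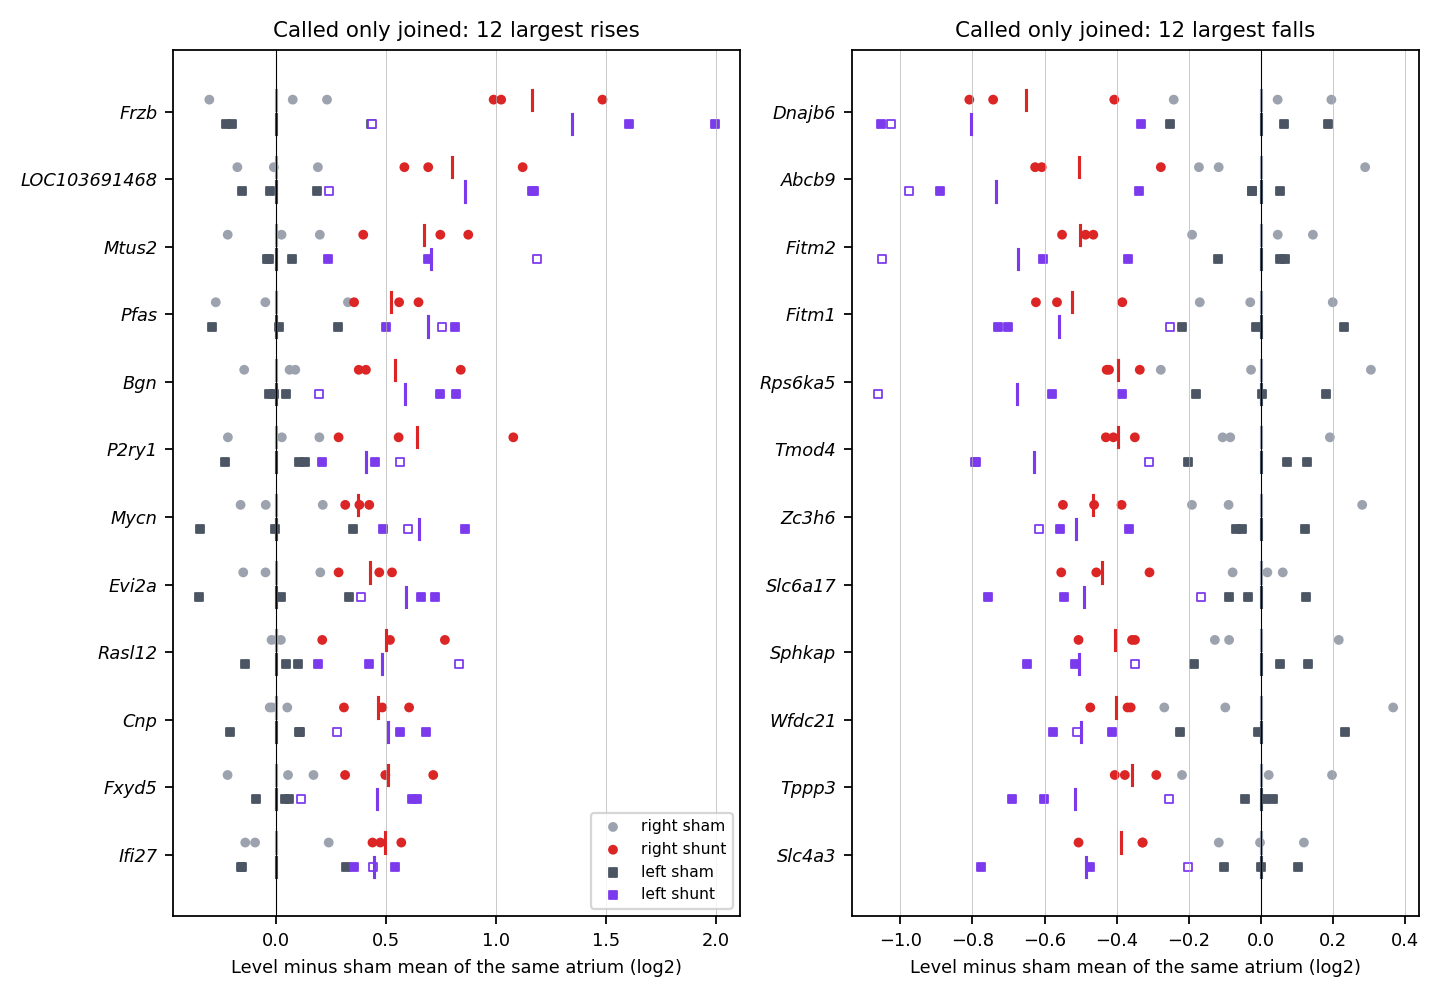
Level of each array minus the sham mean of the same atrium (log2, horizontal axis) for the 12 largest rises (left panel) and 12 largest falls (right panel) called only with both atria joined whose arrays did not overlap in either atrium; circles are right and squares left arrays, ticks are means, open squares left shunt replicate 3. The open square is the left shunt array nearest to sham for Frzb and Bgn and the farthest for Mtus2 and Fitm2.

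Some further genes called only with both atria joined that passed every exclusion were chosen after their values were seen. Klhl40, which stabilises thin filaments of muscle, fell by 0.37 ± 0.06 (adjusted p = 0.0076), and Smtnl2 by 0.33 ± 0.06. Ppp1r1a, an inhibitor of protein phosphatase that protein kinase A switches on, read 8.19, 8.23 and 8.23 in right sham against 7.94, 7.90 and 7.82 in right shunt, and 8.58, 8.65 and 8.58 in left sham against 8.02, 8.22 and 8.40 in left shunt. All arrays were ordered by operation within each atrium, and it fell by 0.36 ± 0.06 (adjusted p = 0.00789); a further probe set was at -0.07 and not called. Apln, the peptide ligand of the apelin receptor, rose by 0.64 ± 0.13, with a further probe set at 0.45 that was not called, and the noncoding RNA Gas5 by 0.40 ± 0.08. Tmem44 fell by 1.02 ± 0.19 (adjusted p = 0.0114), although in the left atrium shunt replicate 3 (5.64) lay above the lowest sham array (5.62).

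The smallest changes called with arrays that did not overlap in either atrium ran from 13.7% to 14.7% among rises and from -11.3% to -12.7% among falls on the linear scale. Ilk, the kinase that links integrins to actin, read 10.36, 10.33 and 10.42 in right sham against 10.52, 10.43 and 10.53 in right shunt, and 10.27, 10.22 and 10.28 in left sham against 10.45, 10.57 and 10.51 in left shunt. It rose by 0.19 ± 0.05 (adjusted p = 0.0441), 13.9%, and the operations lay next to each other in the right atrium without overlap. Creg1, a secreted lysosomal glycoprotein, fell by 0.17 ± 0.04 (adjusted p = 0.0472), a linear change of -11.3%, and read 9.69 to 9.78 in right sham against 9.60 to 9.66 in right shunt. The others were Abhd17c (0.19), Dkk3 (0.20), a secreted relative of Wnt antagonists, and Btg3 (0.20), an antiproliferative gene, and, among falls, the transcription elongation factor Ell (-0.19), Epm2aip1 (-0.20) and the RNA-binding protein Khdrbs3 (-0.20). Creg1 failed in all 12 single-array exclusions, Dkk3 and Epm2aip1 in 10 and the other 5 in 11, with adjusted p-values of at most 0.107. The other probe sets of Dkk3 were at -0.10, -0.01 and 0.10, none of them called. Another Epm2aip1 probe set was not called, with 0.07 in the right and -0.42 in the left atrium. At 3 arrays a group, changes of this size lay at the limit of what could be called.

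Gene lists were counted next, each beside all genes, of which 3.4% were called higher and 1.86% lower with a median averaged change of 0.003. Over all genes, the 483 higher and 264 lower calls became 813 and 404 without left shunt replicate 3 and 282 and 180 without right shunt replicate 1. Without both they were 596 and 293, and 124 and 88 with the 2 atria of each number averaged as a replicate block. List counts under these settings are to be read beside these. Both atria had the same sign, up or down, in 53.3% of all genes. Among the pathway lists, those of the actin cytoskeleton, matrix glycoproteins and collagens had the highest shares of higher calls, and the list of ventricular cardiomyocyte markers, described with the cell markers, had a higher share still (4 of 9). Of 28 collagens and collagen-processing enzymes, 11 rose, none fell and 17 did not pass, with a median averaged change of 0.23. The median was 0.33 in the right and 0.08 in the left atrium. Col8a1, a short-chain collagen, rose by 1.79 ± 0.26, and the basement membrane collagens Col4a2 and Col4a1 by 0.70 ± 0.07 and 0.51 ± 0.11; Col4a1 failed without right shunt replicate 1, right sham replicate 2 or left sham replicate 2, with adjusted p-values of at most 0.0554. Plod2, which hydroxylates collagen lysines before cross-linking, read 7.53, 7.41 and 7.44 in right sham against 8.04, 7.88 and 7.84 in right shunt, and 7.30, 7.33 and 7.28 in left sham against 7.88, 7.77 and 7.43 in left shunt. It rose by 0.43 ± 0.07 (adjusted p = 0.0074), and its arrays did not overlap.

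The 3 collagen genes of this list called only with both atria joined all encode helpers of fibre assembly, named after their values were seen: Pcolce, which enhances the trimming of procollagen (0.32 ± 0.07, adjusted p = 0.0273), and the cross-linking oxidases Lox (0.41 ± 0.10, adjusted p = 0.0422) and Loxl1 (0.36 ± 0.09, adjusted p = 0.0388). A further Lox probe set was at 0.53. They failed in 7, 9 and 11 of the 12 single-array exclusions. Col1a1, the main fibrillar collagen, was at 0.18 ± 0.08 (adjusted p = 0.263), with 0.39 in the right and -0.04 in the left atrium. The count of 11 was 16 without left shunt replicate 3, 5 without right shunt replicate 1 and 13 without both, and 3 where the 2 atria of each number were averaged as a replicate block.

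Of 30 matrix glycoproteins and proteoglycans, 12 rose and none fell, with a median of 0.32, 0.41 in the right and 0.24 in the left atrium. The 2 called only with both atria joined were Bgn and Sparc, a collagen-binding glycoprotein (0.28 ± 0.06). A further probe set of Sparc was called at 0.55 (adjusted p = 0.000563), with 0.78 in the right and 0.31 in the left atrium. Mfap4, a microfibril protein, rose by 0.54 ± 0.07 (adjusted p = 0.00121) and Fbln2, a fibulin, by 0.55 ± 0.07. Postn, periostin, met the averaged threshold (0.82 ± 0.15) with 1.48 in the right and 0.16 in the left atrium, so its call does not describe both chambers. Of 20 matrix proteases and inhibitors the inhibitors Serpine2 (0.90 ± 0.17, adjusted p = 0.0117) and Timp3 (0.27 ± 0.06, adjusted p = 0.0296) rose, and Timp3 failed in 8 of 12 exclusions (adjusted p-values of at most 0.0776). The protease count of 2 was 3 without left shunt replicate 3 and 1 without right shunt replicate 1. The glycoprotein count of 12 was 18 without left shunt replicate 3 and 6 with the atria averaged by number, and the protease count was then 0.

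Of 21 genes of the actin cytoskeleton, 9 rose and none fell, with a median of 0.23, and 18 of 21 were above 0 in both atria. By atrium the median was 0.23 in the right and 0.17 in the left. Actn1, an actin cross-linker, rose by 0.46 ± 0.08 (adjusted p = 0.00894), Capg by 0.45 ± 0.05 and Pfn1, profilin, by 0.26 ± 0.05. Myl9, a light chain of smooth and nonmuscle myosin, read 10.85, 10.76 and 10.97 in right sham against 11.21, 11.06 and 10.99 in right shunt, and 11.20, 11.07 and 11.12 in left sham against 11.51, 11.51 and 11.44 in left shunt. It rose by 0.29 ± 0.06 (adjusted p = 0.0138). Cnn2, whose promoter is shown above, read 7.80 to 7.93 in right sham against 7.97 to 8.25 in right shunt, and 8.43 to 8.63 in left sham against 8.73 to 8.93 in left shunt. It rose by 0.31 ± 0.07 (adjusted p = 0.0217) and failed in 7 of 12 exclusions. Of 24 integrins and focal adhesion genes 5 rose, among them Tln1, talin, which ties integrins to actin (0.30 ± 0.06, adjusted p = 0.0159), and none fell. The count of 9 actin genes was 13 without left shunt replicate 3, 5 without right shunt replicate 1 and 9 without both, and the count of 5 adhesion genes was 8 without left shunt replicate 3 and 3 without right shunt replicate 1. With the atria averaged by number, 1 actin gene and 1 adhesion gene were called.

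**Figure D4:**
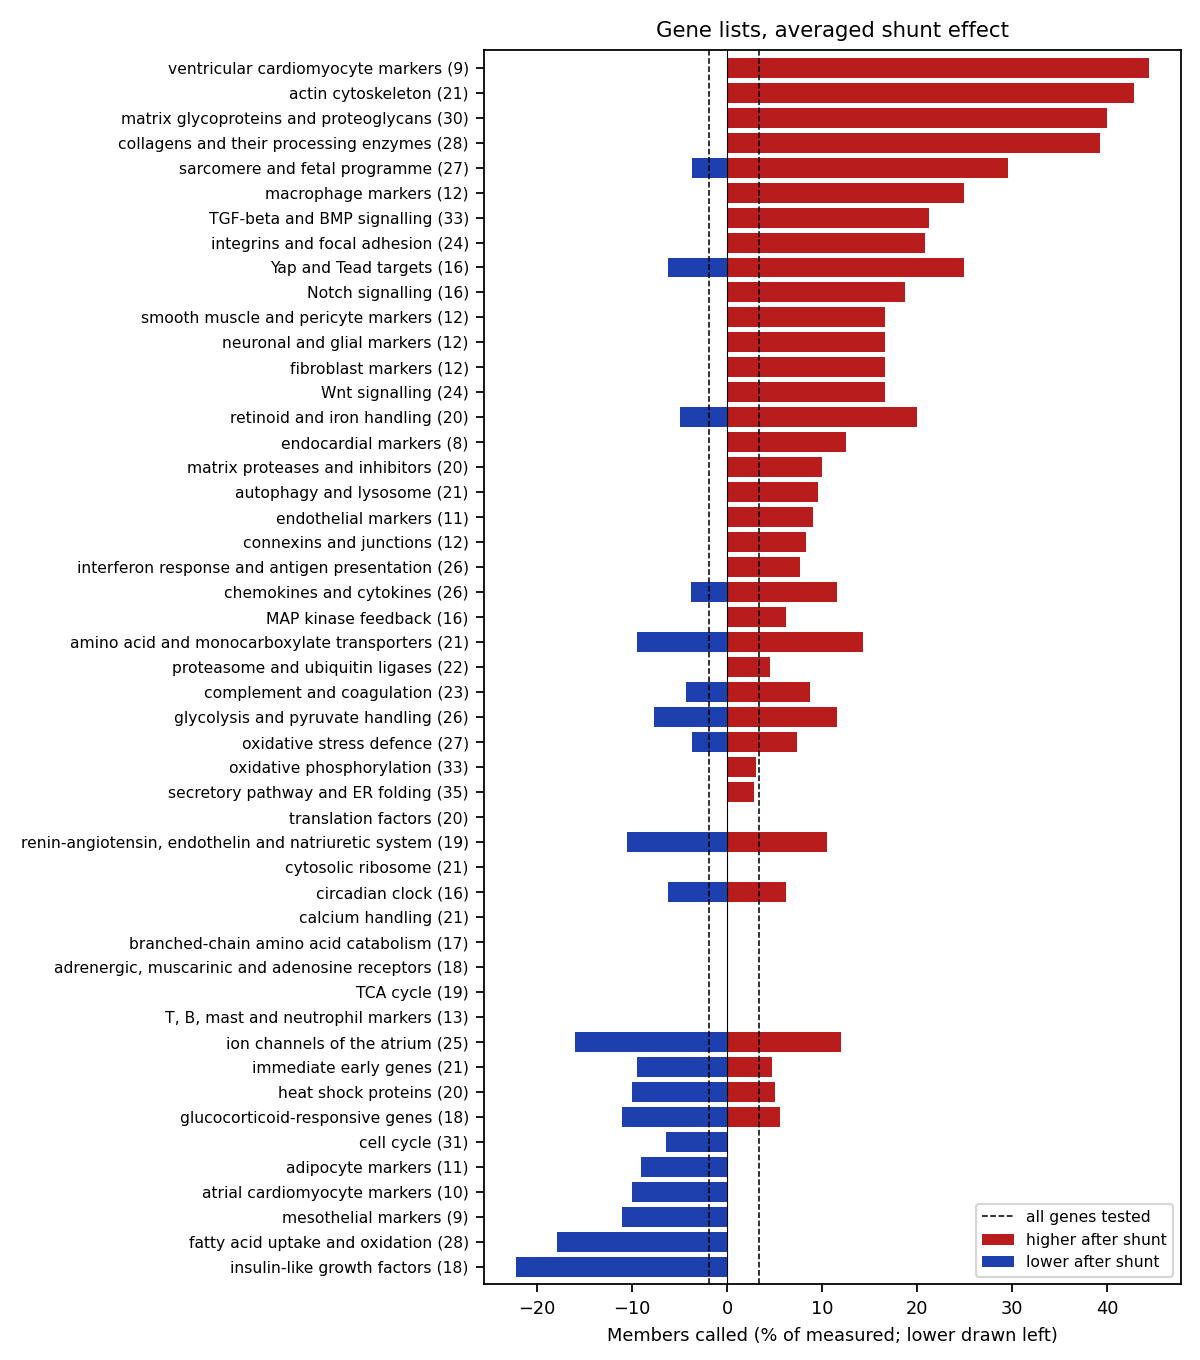
Share of measured members called in the averaged comparison (%, horizontal axis) for each gene list with at least 5 measured members (number measured in brackets), higher to the right in red and lower to the left in blue; dashed lines are the shares over all genes tested, 3.4% and 1.86%. Actin, matrix and collagen lists reach furthest to the right among pathways, and the fatty acid and insulin-like growth factor lists hold lower and no higher calls. So do the cell cycle list and the atrial cardiomyocyte, adipocyte and mesothelial marker lists, with fewer lower calls.

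Of 33 genes of TGF-beta and BMP signalling, which drives fibroblasts and patterns the atria, 7 rose and none fell, with a median of 0.12. By atrium the median was 0.13 in the right and 0.14 in the left. The ligands came with the largest changes: Bmp4 rose by 0.81 ± 0.13 (adjusted p = 0.00468) and Bmp6 by 0.56 ± 0.09 (adjusted p = 0.00507). A further probe set of Bmp6 was called at 0.53, and the other 2 were not called, the lower of their adjusted p-values being 0.986. Smad7, the inhibitory Smad that the pathway itself induces, read 8.16, 8.23 and 8.25 in right sham against 8.66, 8.51 and 8.32 in right shunt, and 7.47, 7.62 and 7.45 in left sham against 8.23, 8.11 and 7.78 in left shunt. It rose by 0.40 ± 0.08 (adjusted p = 0.0165), and its other probe sets were at 0.52 and 0.10, neither called. The target genes Id1 (0.34 ± 0.08) and Id3 (0.35 ± 0.09) were called only with both atria joined, named after their values were seen, and failed in 9 and 10 of 12 exclusions. The count of 7 was 14, with 1 fall, without left shunt replicate 3, 4 without right shunt replicate 1 and 1 with the atria averaged by number.

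Of 24 Wnt genes 4 rose and none fell: Frzb, Dkk3 and the receptors Fzd1 (0.32 ± 0.07, adjusted p = 0.021) and Fzd2 (0.47 ± 0.07, adjusted p = 0.00327). Fzd1 failed without right shunt replicate 2, left shunt replicate 2 or left sham replicate 3, with adjusted p-values of at most 0.0573. The count of 4 Wnt genes was 6 without left shunt replicate 3, and 1 Wnt, 1 Notch and 2 Yap and Tead genes rose with the atria averaged by number. Of 16 Notch genes 3 rose, the target genes Hey1 (0.44 ± 0.08, adjusted p = 0.00777) and Hey2 (0.50 ± 0.09, adjusted p = 0.00814) and the feedback inhibitor Nrarp (0.44 ± 0.11, adjusted p = 0.0441), which failed in 9 of 12 exclusions and had further probe sets at 0.54, called, and 0.08, not called. Of 16 Yap and Tead targets 4 rose and 1 fell. Ankrd1, a stretch-responsive repressor, read 13.33 to 13.41 in right sham against 13.62 to 13.69 in right shunt, and 13.56 to 13.61 in left sham against 13.77 to 13.84 in left shunt, and rose by 0.26 ± 0.04 (adjusted p = 0.00786). Ajuba rose by 0.41 ± 0.09 (adjusted p = 0.0204), failed in 5 of 12 exclusions and had a further probe set that was not called (adjusted p = 0.997).

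Genes of fatty acid use moved the other way. Of 28 measured genes of fatty acid uptake and oxidation, none rose and 5 fell, all 5 called only with both atria joined, and 15 of 28 were below 0 in both atria against 1 above 0 in both. Over all genes, 53.3% had the same sign in both atria, in either direction. The median averaged change was -0.07, with medians of -0.01 in the right and -0.16 in the left atrium, so most of this list's shift lay in the left. Slc27a1, a fatty acid transporter, read 8.13, 8.21 and 8.28 in right sham against 7.91, 8.06 and 7.90 in right shunt, and 8.83, 8.77 and 8.77 in left sham against 8.47, 8.62 and 8.38 in left shunt. It fell by 0.27 ± 0.06 (adjusted p = 0.0196), the arrays apart in both atria.

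Cpt1a, which commits acyl groups to the mitochondrion, read 9.09, 9.14 and 9.13 in right sham against 8.87, 8.91 and 8.84 in right shunt, and 9.15, 9.42 and 9.39 in left sham against 8.83, 8.94 and 9.16 in left shunt. It fell by 0.29 ± 0.07 (adjusted p = 0.0283), with left shunt replicate 3 just above the lowest left sham array and a further probe set at -0.37. Acsl1, which joins fatty acids to coenzyme A, fell by 0.29 ± 0.07 (adjusted p = 0.0269), with other probe sets at -0.32 and 0.11. Ech1, an isomerase of beta-oxidation, fell by 0.26 ± 0.06 (adjusted p = 0.0244) and Acot2, a mitochondrial thioesterase, by 0.23 ± 0.06 (adjusted p = 0.0431). The 5 falls failed in 2 (Slc27a1, without right shunt replicate 1 or right sham replicate 3), 10 (Cpt1a), 7 (Acsl1), 8 (Ech1) and 9 (Acot2) of 12 exclusions, with adjusted p-values of at most 0.0996. The list's count of 5 was 8 without left shunt replicate 3, 0 without right shunt replicate 1, 4 without both and 0 with the atria averaged by number; an adjusted p over 0.05 does not show that a gene stayed level.

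Beside that list stand 2 lipid droplet genes named among the falls above and a lipase. Fitm2, an endoplasmic reticulum protein that shapes lipid droplets, read 10.67, 10.34 and 10.57 in right sham against 10.04, 10.06 and 9.98 in right shunt, and 10.43, 10.61 and 10.60 in left sham against 10.18, 9.94 and 9.50 in left shunt. No shunt array reached a sham array, and it fell by 0.59 ± 0.10 (adjusted p = 0.00749), a linear change of -33.5%; a further probe set was at -0.58 with an adjusted p of 0.131. Its muscle relative Fitm1 read 8.43, 8.80 and 8.57 in right sham against 8.22, 7.98 and 8.04 in right shunt, and 8.94, 9.39 and 9.15 in left sham against 8.43, 8.46 and 8.91 in left shunt. It fell by 0.54 ± 0.10 (adjusted p = 0.0123). Lipe, the hormone-sensitive lipase that releases stored fat, fell by 0.25 ± 0.06 (adjusted p = 0.0446), failed in 10 of 12 exclusions and had a further probe set at -0.13, not called.

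Markers of fat cells are given beside these genes. Of 11 measured adipocyte markers Lipe was called and 10 were not. The markers' mean level was 6.47 to 6.65 in right sham, 6.27 to 6.37 in right shunt, 6.60 to 6.77 in left sham, and 6.36, 6.79 and 7.36 on left shunt replicates 1 to 3. Adipoq, adiponectin, read 6.09 and Plin1, perilipin, 5.89 on left shunt replicate 3, their highest arrays, against 4.67 to 5.54 and 4.29 to 4.74 in left sham. The part of fat cells in the lipid gene changes was not tested, and without left shunt replicate 3, Fitm1, Fitm2 and Lpin1 fell by 0.62, 0.49 and 0.73. Without it 3 adipocyte markers fell.

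**Figure D5:**
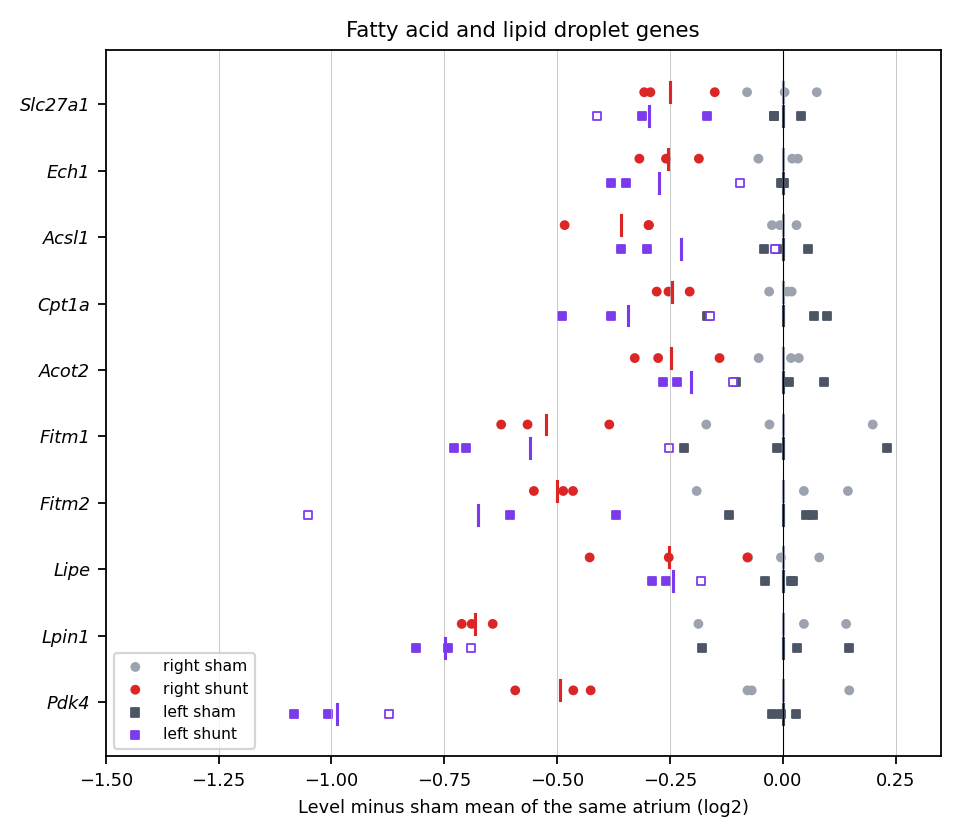
Level of each array minus the sham mean of the same atrium (log2, horizontal axis) for genes of fatty acid uptake and oxidation, lipid droplets and their control; circles are right and squares left arrays, ticks are group means, open squares left shunt replicate 3. Fitm1, Fitm2, Lpin1 and Pdk4 have shunt arrays apart from sham arrays in both atria, while Acsl1 and Cpt1a overlap in the left atrium at the open square.

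Among other metabolic genes, Pdk4, a kinase that inhibits pyruvate dehydrogenase, fell by 0.74 ± 0.06 (adjusted p = 5.1e-05), by 0.49 in the right and 0.99 in the left atrium. Pfkp, the platelet form of phosphofructokinase, rose by 0.43 ± 0.07 (adjusted p = 0.00645), with 0.42 and 0.44 in the 2 atria. Of 26 genes of glycolysis and pyruvate handling 3 rose and 2 fell. Of 33 genes of oxidative phosphorylation Cox7a1, a muscle form of a cytochrome oxidase subunit, rose (0.62 ± 0.09) and 32 did not pass. No member was called, in limma's test, of 19 genes of the TCA cycle, 17 of branched-chain amino acid breakdown, 21 of calcium handling, 21 of the cytosolic ribosome, 20 translation factors and 18 adrenergic, muscarinic and adenosine receptors, with medians from -0.06 to 0.04. At an unadjusted p under 0.05 their counts were 0, 4, 5, 2, 4 and 5 in that order, beside 3021 of all 14217 genes. Without left shunt replicate 3, 4 calcium handling genes fell, 2 receptor genes fell and 1 rose, and 2 translation factors rose and 1 fell; without right shunt replicate 1, 1 ribosomal gene rose.

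Of 25 ion channels of the atrium 3 rose and 4 fell. Kcna5, the channel of the ultrarapid potassium current of the atrium, read 5.95, 6.40 and 6.47 in right sham against 5.18, 5.33 and 5.56 in right shunt, and 6.14, 6.51 and 6.23 in left sham against 5.64, 5.74 and 5.51 in left shunt. It fell by 0.79 ± 0.10 (adjusted p = 0.00129), a linear change of -42.2%, with the arrays apart in both atria. Kcnj5, a subunit of the acetylcholine-gated potassium channel, was called only with both atria joined (-0.34 ± 0.09, adjusted p = 0.0464), was named after its value was seen and failed in 11 of 12 exclusions. Ace, the angiotensin-converting enzyme, rose by 0.42 ± 0.07 (adjusted p = 0.00507), and a further Ace probe set was at 0.18, not called. Agtr2, the type 2 angiotensin receptor, fell by 0.37 ± 0.09 (adjusted p = 0.0312) with levels of 3.47 to 4.35, low on these arrays. Agtr2 failed in 8 of 12 exclusions. Nppb, the B-type natriuretic peptide, rose by 0.51 ± 0.06 (adjusted p = 0.000488), and Nppa read 14.37 to 14.43 on all arrays, at the top of the scale, where a change of 0.03 ± 0.04 (adjusted p = 0.773) could not be resolved.

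Markers of other cells moved in part with these results. Of 9 measured markers of ventricular cardiomyocytes 4 rose, Myh7, Myl3, Myl2 and Hey2, with median changes of 0.70 in the right and 0.10 in the left atrium. The markers' mean level was 7.61 to 7.72 in right sham and 7.91, 8.54 and 8.51 on right shunt replicates 1 to 3. In the left atrium it was 6.54 to 6.79 after sham and 6.92 to 7.14 after the shunt. Of 12 macrophage markers 3 rose, Lyz2 (0.62 ± 0.10), Aif1 (0.58 ± 0.10) and Cybb (0.64 ± 0.11), and 10 of 12 were above 0 in both atria. The macrophage markers had a median of 0.29, with 0.46 in the right and 0.16 in the left atrium. Their mean level was 7.30 to 7.40 in right sham and 7.79 to 7.86 in right shunt, and 6.97 to 7.07 in left sham against 7.37, 7.46 and 6.87 on left shunt replicates 1 to 3; without left shunt replicate 3, 10 of 12 rose, and with the atria averaged by number 1 did. A further probe set of Aif1 was at -0.14, one of Cybb at 0.32, not called, and one of Myl2 at -0.20. Of 12 fibroblast markers Thy1 (0.62 ± 0.09) and Pi16 (0.82 ± 0.15) rose, with further probe sets at 0.47 and 0.20, neither called. The fibroblast markers had a mean level of 10.10 to 10.20 in right sham, 10.33 to 10.38 in right shunt, 10.46 to 10.52 in left sham and 10.38 to 10.74 in left shunt. None of 13 markers of T, B, mast and neutrophil cells was called in limma's test, and 0 had an unadjusted p under 0.05; without left shunt replicate 3, 1 of them rose. The part of these cells in the matrix and contractile gene changes was not tested.

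Calls made without an array were then read on that array, which had no part in making them. For each call, the midpoint between the sham and shunt means of that array's atrium was taken, its own group without it, and the array was counted where it lay on the side that the averaged change gave its operation. The arrays behind the midpoint, and the array of the same number in the other atrium, had helped to make the calls. The shares are therefore not a fully independent check. For 11 arrays the share was 73.4% to 90.8% of the calls, against 51.6% to 60.2% of all probe sets. For left shunt replicate 3 it was 40.7% of 2018 calls, against 46.1% of all probe sets, so for most of these calls that array lay on the side of the sham mean.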

How the data were processed

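RNA of atrial appendages was measured on 12 Affymetrix arrays. The authors deposited log2 expression values. The submitters' processing notes name RMA, whose version is not given in the sources used here. RMA sets all arrays to 1 distribution, which limits changes near the top of the scale. No depth exists for arrays, and their number, 3 a group, limits the precision.

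Of 31099 probe sets, 57 controls were left out. A model with 4 group means was fitted with limma 3.58.1 in R 4.3.3 over all 31042 others, with Benjamini-Hochberg adjustment of its p-values. The test of a change in each atrium took the larger p of the right and left contrasts, set to 1 where signs differed. A probe set was called only with both atria joined where the averaged contrast had an adjusted p under 0.05 and neither atrium did. The platform table gave 20826 probe sets 1 gene, 436 several and 9780 none. Each gene was read from its brightest probe set.

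Named genes were the 12 largest rises and 12 largest falls called only with both atria joined without overlap in either atrium, up to 8 each way past the both-atria test, the 4 smallest changes each way without overlap, up to 4 called members of each of 50 gene lists, and Nppa, Nppb, Acta1, Myh7, Ankrd1, Col1a1 and Postn. The members and lists were chosen with earlier results of these data known. The model was tested on simulated data with independent noise on every array and equal changes in both atria. That test did not cover right and left arrays of the same number that vary together. Alternatives were other scalings, filters, variance models, replicate blocks and the exclusion of each array.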

Additional observations from a re-analysis of the deposited data

Results flagged for a closer look

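Hamp, which encodes the iron hormone hepcidin, was called in the averaged comparison (1.02 ± 0.09) but did not change alike in the atria: the difference was 0.17 in the right and 1.87 in the left atrium. Left minus right was 1.69 ± 0.17 (adjusted p = 0.00753 in limma's test of the interaction), so its averaged change describes neither chamber.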

How the results depend on the processing

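The 1198 averaged calls were 1867 with array weights and 345 with a replicate block made by averaging the 2 atria of each number, of which 338 were among the 1198; over genes, where 483 were higher and 264 lower, it called 124 higher and 88 lower, and the report gives its counts for the lists. Leaving out 1 array gave 672 to 2018. The 25 calls of the both-atria test were 49 with dim probe sets left out, 75 with the trend and robust options, 88 with array weights and 57 without left shunt replicate 3 and right shunt replicate 1, and leaving out 1 array gave 5 to 125. The 504 calls made only with both atria joined were 308 to 760 when 1 array was left out and stayed within 1.5 times under the other settings that counted them. They were not counted with the atria averaged by number or in a model with 1 shunt effect for both atria. Those fits give no test for each atrium, so the same count cannot be made there. Both fits do test the averaged change, but how many of the 504 kept that call is not given. A fixed replicate block gave 1146, 34 and 530 calls for the 3 counts. That block joined sham and shunt arrays of 1 number, which within an atrium had correlations of -0.076 to -0.006, so it does not stand for right and left pairs. A random replicate block, which joined the right and left arrays of 1 operation and number, gave 1046, 25 and 384. The labels do not say that arrays with 1 number share rats: the right and left arrays of 1 number deviated together weakly (correlations of 0.079 to 0.148, 3 of 6 above 0.1), though each correlated best with its own number in 6 of 6 pairs, a hint from the data and not the design. Of 142 named genes called, 56 passed in every setting, 46 failed in at least 1 exclusion of an array and 86 in at least 1 other setting, and the cause was not tested. Nppa, not called, turned from 0.03 to -0.010 after quantile normalization again. Counts of list members without left shunt replicate 3 or right shunt replicate 1 were added after seeing the data.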
